A study of Mus musculus with 12 samples.

Results

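The genes described here encode the machinery that adds, removes and reads N6-methyladenosine (m6A), a methyl mark on the adenosines of messenger RNA. The members were the 10 rows of the authors' deposited gene table whose symbol was Mettl3, Mettl14, Wtap, Zc3h13, Fto, Alkbh5, Ythdc1, Ythdf1, Ythdf2 or Ythdf3, of 49216 genes with counts. The choice went by symbol and no measured value entered the rule, but earlier results of these data were known when it was made. All 10 passed the filter on low values.

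The cells were male germ cells of C57Bl mice that express tdTomato in germ cells, isolated by flow cytometry at 2 spans of meiosis. Leptotene and zygotene (LZ) cells were cultured for 6 days, either untreated or with 0.3 mM octyl-L2HG, an ester of L-2-hydroxyglutarate (2HG) that enters cells. Pachytene and diplotene (PD) cells were cultured for 48 hours, either without addition or in 24 mM oxamate, which inhibits lactate dehydrogenase; the series text gives oxamate's effect as bringing 2HG of PD cells to what LZ cells hold. Each of the 4 groups had 3 libraries of poly-A RNA, from 3 experiments described as independent, called A, B and C by a code that the groups share.

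m6A is laid down in the nucleus by a complex whose core is METTL3, the catalytic methyltransferase, and METTL14, its RNA-binding partner, with WTAP and ZC3H13 holding the complex at its sites. FTO and ALKBH5 take the methyl group off, and both belong to the dioxygenases that use 2-oxoglutarate, a co-substrate that 2HG resembles and can compete with. Proteins with a YTH domain read the mark, YTHDC1 mainly in the nucleus and YTHDF1, YTHDF2 and YTHDF3 in the cytoplasm. In mice, germ cells need several of these proteins, ALKBH5 and YTHDC2 among them, to complete spermatogenesis.

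Library totals ran from 10532504 to 21275486 counts, and each member had at least 100 counts in every PD library. The 10 genes together took 18427 to 32487 counts in an LZ library and 5686 to 8646 in a PD library. Marker genes sorted by the labelled stages: 7 markers of leptotene and zygotene took 0.392% to 0.481% of counts in untreated LZ libraries and 0.0222% to 0.0335% in untreated PD libraries, and 8 markers of pachytene and diplotene took 0.0410% to 0.0502% and 1.09% to 1.13%. Of these, 2 went against their list (chosen for mention after their values were seen): Spo11, the nuclease of meiotic breaks, was higher in PD cells (limma adjusted p = 1.65e-07), and Mybl1, a transcription factor of pachytene cells, was not called. Markers of Sertoli, Leydig, peritubular, macrophage and endothelial cells took at most 0.00195% of counts per list in any library. Values below are read counts scaled between libraries by trimmed mean of M values (TMM) unless a length-scaled level is named, the error is the SD over 3 libraries, and log2 fold changes are of normalised count + 1 with their standard error (SE).

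Between the stages, the writers, the readers and Alkbh5 were lower in untreated PD cells than in untreated LZ cells, and Fto was higher. Of the 10 genes 9 fell and 1 rose at a limma adjusted p under 0.05, and the groups of no member overlapped. How many of all genes were without overlap was not counted. The background was broad in both directions, since 50.8% of the 16858 genes tested were called higher and 39.0% lower. The median log2 fold change was -1.74 over the members and 0.49 over all genes tested. Scaling by total count moved the median of all genes to -0.08, and the 10 members kept their direction and call with that scaling and in each of the other 18 alternative fits. Stage cannot be told apart from the time in culture or from the sort, and in bulk libraries fewer cells of a type and less RNA per cell cannot be told apart. Markers of round spermatids moved with the stage, all 6 being called higher. They took 0.000359% to 0.00138% of counts in LZ libraries, with Acrv1 at 0, and 0.0597% to 0.0669% in PD libraries, both untreated. Other marker lists moved too. All tested markers of Sertoli (2), Leydig (1) and peritubular cells (2) were called lower in PD cells. Of 3 endothelial markers 2 were higher. Of 2 macrophage markers 1 was higher and 1 lower, and of 3 spermatogonial markers 1 was higher and 2 lower. The part of these cell types in the members' changes was not tested.

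Fto (ENSMUSG00000055932, GRCm38 chr8:91313525-91668439, plus strand) encodes the demethylase first tied to body mass in people. Its normalised counts in untreated LZ libraries A, B and C were 106, 92.9 and 97.6, and in untreated PD libraries 1596, 1706 and 1570. Every PD library was far above every LZ library. The rise was 16.4-fold, from 98.8 ± 6.54 to 1624 ± 72.1 (n = 3), or 4.03 on the log2 scale with an SE of 0.10 (limma adjusted p = 7.40e-14). The size of the change exceeded that of 70.0% of all genes tested in this comparison.

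The Fto promoter is shown because Fto alone among the 10 genes rose, and because its start region is shared with a neighbour. The RefSeq window of 250 bases before to 50 after the start (GRCm38.p6, chr8:91313275-91313574, plus strand) is printed in full, all in lower case because it held none of the motifs searched.
Fto promoter: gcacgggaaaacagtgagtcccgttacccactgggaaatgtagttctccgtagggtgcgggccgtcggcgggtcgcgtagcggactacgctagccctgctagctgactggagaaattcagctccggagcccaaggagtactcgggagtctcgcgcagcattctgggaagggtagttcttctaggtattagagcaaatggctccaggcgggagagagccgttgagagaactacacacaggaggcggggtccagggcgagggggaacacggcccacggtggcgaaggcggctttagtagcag
Rpgrip1l, which encodes a protein of the ciliary transition zone, starts on the other strand, its gene 263 bases from Fto, and 198 bases of the windows of the 2 genes are common. Its counts were 436 ± 93.3 and 751 ± 104.7 in the untreated LZ and PD groups, or 0.80 on the log2 scale with an SE of 0.19 (limma adjusted p = 0.00128), which was not called with total-count scaling (0.32, adjusted p = 0.105). The difference between the 2 genes' changes was not tested. A total of 8 small non-coding or unconfirmed genes lie within the bounds of Fto, and the highest group mean among them was 13.9 counts.

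Alkbh5 (ENSMUSG00000042650, chr11:60536381-60558512, plus strand), the other demethylase, went the opposite way. Its counts were 5225, 4196 and 4355 in untreated LZ libraries and 1339, 1362 and 1189 in untreated PD libraries. All LZ libraries were above all PD libraries. The fall was 3.54-fold, from 4592 ± 554 to 1297 ± 93.8, or -1.82 on the log2 scale with an SE of 0.10 (limma adjusted p = 2.69e-10). Within a library the ratio of Alkbh5 to Fto counts, which needs no scaling between libraries, was 44.6 to 49.4 in LZ and 0.757 to 0.839 in PD cells, both untreated. Of the summed length-scaled level of the 2 erasers, Fto made up 0.982 ± 0.0530% in LZ and 36.6 ± 1.19% in untreated PD cells.

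The writers fell by unequal amounts. Zc3h13 (ENSMUSG00000022000, chr14:75284373-75344426, plus strand), the zinc finger protein that ties WTAP to the rest of the complex, had counts of 2641, 3735 and 2651 in untreated LZ libraries and 123, 113 and 143 in untreated PD libraries. Library B stood above the other 2 LZ libraries, and all 3 were far above PD. The fall was 23.8-fold, the largest of the 10 genes (log2 fold change -4.55, SE 0.15, limma adjusted p = 1.16e-12).

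Wtap (ENSMUSG00000060475, chr17:12966796-12994169, minus strand), which anchors the methyltransferase core in nuclear speckles, had counts of 1931, 1741 and 1889 in untreated LZ libraries and 211, 186 and 209 in untreated PD libraries. The fall was 9.19-fold (log2 fold change -3.19, SE 0.09, limma adjusted p = 2.37e-13), again with no overlap. Mettl14 (ENSMUSG00000028114, chr3:123368297-123386108) fell 3.30-fold, from 787 ± 87.7 to 239 ± 14.7. Mettl3 (ENSMUSG00000022160, chr14:52294841-52305128), the catalytic subunit, fell the least of the 10 genes, 1.95-fold, from 321 ± 6.30 to 165 ± 3.52 (log2 fold change -0.96, SE 0.11, limma adjusted p = 1.57e-06).

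Counts of Mettl3 carry a limit of their own. The 3' end of the gene overlaps that of Tox4 on the other strand, and the strand setting of the counting is not given in the sources used here, so reads there could have been dropped or assigned to either gene. Tox4 was far more abundant, with group means of 2548 to 3503 counts. It fell by 0.22 on the log2 scale between the stages (SE 0.09, limma adjusted p = 0.0302, and 0.0799 or 0.0603 without untreated LZ library A or B), and its log2 fold change with oxamate was -0.18 (adjusted p = 0.251).

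The readers fell too. Ythdf1 (ENSMUSG00000038848, chr2:180904377-180920949), the reader tied to translation, fell 11.7-fold, from 3378, 3230 and 3057 in untreated LZ libraries to 277, 243 and 305 in untreated PD libraries (log2 fold change -3.55, SE 0.10, limma adjusted p = 2.03e-13). Its paralogues fell less. Ythdf2 (chr4:132184912-132212303), which recruits the CCR4-NOT deadenylase to methylated transcripts, fell 3.39-fold, from 2628 ± 145 to 775 ± 17.8. Ythdf3 (chr3:16183212-16217037), which works with both paralogues, fell 2.99-fold, from 1554 ± 198 to 519 ± 83.4. Ythdc1 (chr5:86804221-86836659), the nuclear reader known for its part in splicing and export, fell 2.19-fold, from 3439 ± 180 to 1570 ± 165.0.

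**Figure D1:**
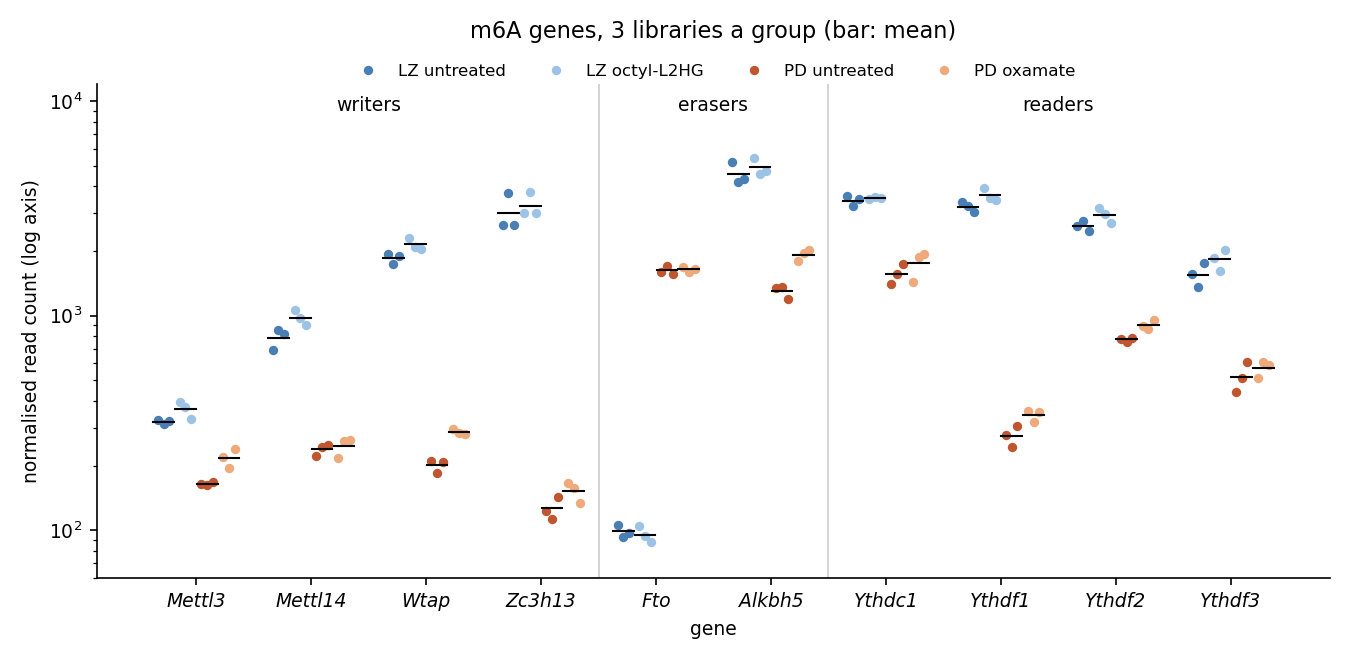
Normalised read counts of the 10 m6A genes on a log axis, with 1 point per library, a bar at the mean of 3 libraries, and colours for the 4 groups. Fto alone is higher in PD than in LZ cells, from 98.8 to 1624, and the treated groups lie near the untreated group of their own stage.

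Compared per length, the order of the genes changed between the stages. Here a level is the count per base of merged exons, scaled to sum to 1000000 in each library, with no TMM. It sets genes of a library side by side, but it depends on the annotation, since exons of all isoforms are merged. They came to 13031 bases for Fto, 13651 for Ythdc1, 5987 for Alkbh5 and 3316 for Ythdf1. Where the transcripts present are shorter the level is too low. Orders and shares between genes carry this limit. In untreated LZ cells Ythdf1 led at 297 ± 7.78, followed by Alkbh5 at 234 ± 14.4, Ythdf2 at 176 ± 13.6 and Zc3h13 at 147 ± 34.9. Wtap at 90.9 ± 5.44, Ythdf3 at 89.0 ± 13.9 and Ythdc1 at 77.2 ± 4.17 came next. Mettl14 at 32.7 ± 5.42, Mettl3 at 19.4 ± 1.11 and Fto at 2.32 ± 0.0850 were the lowest. The libraries of Ythdf2 and Zc3h13, of Wtap and Ythdf3, and of Ythdf3 and Ythdc1 overlapped, and the other neighbours in this order did not.

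In untreated PD cells Alkbh5 led at 41.7 ± 2.73, then Ythdf2 at 32.6 ± 1.01 and Fto at 24.0 ± 0.881. Fto thus ranked 3 of the 10 genes, where it ranked 10 in LZ cells. Ythdc1 at 22.2 ± 2.43, Ythdf3 at 18.7 ± 3.09 and Ythdf1 at 16.0 ± 1.93 followed, and from Fto to Ythdf1 each gene's libraries overlapped those of the next. The core writers came to nearly the same level, Mettl3 at 6.25 ± 0.183, Wtap at 6.22 ± 0.475 and Mettl14 at 6.20 ± 0.397, with overlapping libraries. Zc3h13 was last at 3.88 ± 0.504, below all libraries of the other 3 writers.

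**Figure D2:**
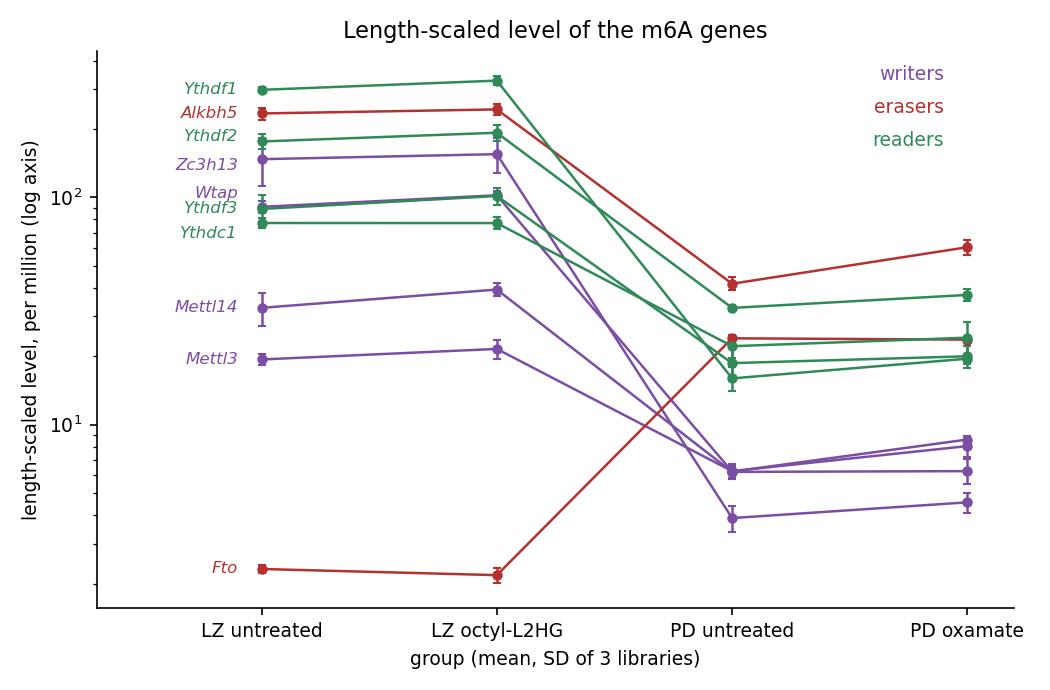
Length-scaled level on a log axis, as mean and SD of 3 libraries, for the 10 genes in the 4 groups, with lines joining the groups of a gene. Mettl3, Wtap and Mettl14 meet between 6.20 and 6.25 in untreated PD cells after levels of 19.4 to 90.9 in untreated LZ cells, and Fto goes from rank 10 to rank 3.

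Ratios within a library put the unequal falls side by side. Wtap counts were 5.56 to 5.94 times those of Mettl3 in untreated LZ and 1.15 to 1.29 times in untreated PD libraries, and Zc3h13 counts 9.41 ± 2.17 and 0.768 ± 0.0767 times. The ratio of Mettl3 to Mettl14 counts went from 0.412 ± 0.0548 to 0.691 ± 0.0389. Of the summed length-scaled level of the cytoplasmic readers, Ythdf1 made up 51.4% to 54.1% in LZ libraries and 21.9% to 24.9% in PD libraries, both untreated. Ythdf2 went from 31.3 ± 1.56% to 48.6 ± 2.57%, and Ythdf3 from 15.8 ± 2.25% to 27.6 ± 2.87%. No libraries of the 2 stages overlapped in any of these ratios, and the two-sided exact permutation p was 0.1 for each, the smallest that 3 against 3 libraries allow.

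**Figure D3:**
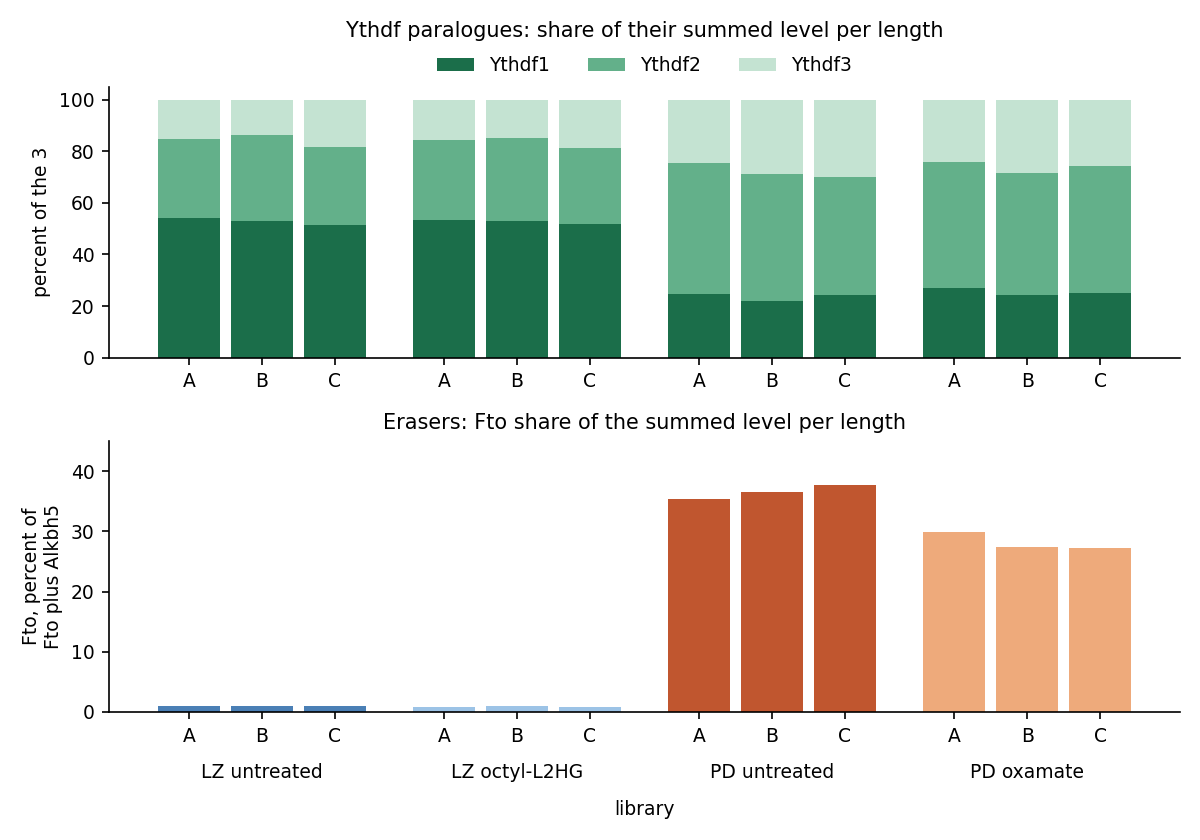
Above, the share of each Ythdf paralogue in their summed length-scaled level, and below, the share of Fto in the summed level of Fto and Alkbh5, both in percent with 1 bar per library. Ythdf1 falls from 52.9% to 23.7% of the readers between the untreated stages, and Fto from 36.6% to 28.2% of the erasers with oxamate.

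Addition of octyl-L2HG to LZ cells raises the question of what more 2HG does early in meiosis, and limma called no member. At an unadjusted p under 0.05 there were 2 members, Mettl14 and Wtap, where 13.0% of all genes tested were under it. The authors' deposited table also had no member with an adjusted p under 0.05. Few genes were called at all, 0.277% of 13005 tested higher and 0.0231% lower. The median log2 fold change was 0.17 over the members, of which 9 had a positive value in the main fit, and 0.06 over all genes. Over the alternative fits the value of Ythdc1 ran from -0.04 to 0.07.

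The member with the largest value was Mettl14, at 688, 856 and 817 counts untreated and 1057, 975 and 908 with octyl-L2HG. All treated libraries were above all untreated ones. The log2 fold change was 0.32 (SE 0.12, limma adjusted p = 0.260, unadjusted p = 0.0154). Wtap stood at 1931, 1741 and 1889 counts untreated and 2306, 2079 and 2052 treated, also without overlap, or 0.21 on the log2 scale with an SE of 0.09 (adjusted p = 0.333). Libraries of Mettl3 and Ythdf1 did not overlap either, at 0.19 and 0.17, and those of the other 6 members did. The share of all genes without overlap was not counted, so the separation is not read as particular to the members. For the erasers, the enzymes that 2HG could inhibit, the 95% interval of the log2 fold change was -0.26 to 0.16 for Fto and -0.12 to 0.32 for Alkbh5.

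The oxamate comparison addresses lower 2HG, together with blocked lactate dehydrogenase, in PD cells, and 2 of the 10 genes rose, Alkbh5 and Wtap. None fell. Of 15210 genes tested 6.15% were called higher and 1.67% lower. All 10 members had a positive log2 fold change in the main fit, with a median of 0.25 against 0.03 over all genes. With total-count scaling Fto stood at -0.05 and Mettl14 at -0.03, and the median of all genes at -0.04. The share of all genes with a positive value was not counted. An unadjusted p under 0.05 was found for 5 members, as for 21.1% of the genes tested.

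Alkbh5 rose 1.48-fold, from 1339, 1362 and 1189 counts without oxamate to 1804, 1950 and 2014 with it. Each treated library was above each untreated one, and all were below the lowest LZ library. The log2 fold change was 0.57 (SE 0.10, limma adjusted p = 0.00429), and Alkbh5 was called in each of 19 alternative fits, with values from 0.50 to 0.60. In the authors' deposited table the log2 fold change was 0.54 with an adjusted p of 5.36e-09. Fto stood at 1596, 1706 and 1570 counts untreated and at 1677, 1605 and 1646 treated, with a 95% interval of -0.19 to 0.23 on the log2 scale. The ratio of Alkbh5 to Fto counts was 0.798 ± 0.0408 untreated and 1.17 ± 0.0827 treated, and the share of Fto in the length-scaled level of the erasers 36.6 ± 1.19% and 28.2 ± 1.47% (two-sided exact permutation p = 0.1 for each, the smallest possible).

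Wtap rose 1.42-fold, from 211, 186 and 209 counts to 296, 283 and 280. The treated libraries lay close together and above all untreated ones. The log2 fold change was 0.50 (SE 0.09, limma adjusted p = 0.00415), between 0.43 and 0.55 in 19 alternative fits and called in each, and the authors' deposited table gave 0.48 with an adjusted p of 0.00201. The highest oxamate library, at 296, was still far below 1741, the lowest untreated LZ library.

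The promoters of Alkbh5 and Wtap are shown because they are the members called with oxamate. Both windows run from 250 bases before to 50 after a RefSeq start in GRCm38.p6, for Alkbh5 at chr11:60537433-60537732 on the plus strand and for Wtap at chr17:12992494-12992793 on the minus strand, the first of 3 Wtap windows. Both windows lie inside the gene bounds given above, downstream of the gene start in the authors' table. Capitals mark the CCAAT box.
Alkbh5 promoter: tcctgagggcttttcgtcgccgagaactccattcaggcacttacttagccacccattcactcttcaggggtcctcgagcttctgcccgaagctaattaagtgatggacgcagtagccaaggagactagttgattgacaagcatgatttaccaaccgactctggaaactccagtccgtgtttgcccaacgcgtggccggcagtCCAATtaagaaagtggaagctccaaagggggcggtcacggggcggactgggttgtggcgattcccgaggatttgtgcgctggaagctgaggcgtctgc
Wtap promoter: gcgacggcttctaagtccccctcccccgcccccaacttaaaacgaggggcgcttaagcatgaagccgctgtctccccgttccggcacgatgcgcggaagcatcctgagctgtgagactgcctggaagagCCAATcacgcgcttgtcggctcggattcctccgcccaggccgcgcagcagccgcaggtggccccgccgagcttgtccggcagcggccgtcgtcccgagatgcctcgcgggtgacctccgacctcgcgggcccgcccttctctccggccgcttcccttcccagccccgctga
The motifs searched on both strands were the cAMP response element TGACGTCA, the E-box CACGTG, the box CCAAT, the MYB motif AACNGTC, the ETS motif CCGGAAG, the NRF1 half-site GCATGCGC and the C/EBP-ATF element TGATGNAA, and no matches overlapped in these windows. CCAAT was the only one found in the Alkbh5 and Wtap windows printed, once in each, and 37.4% of 32817 promoter windows of that length hold it. Of the Wtap windows not printed, that at chr17:12992490-12992789 held 1 CCAAT box and that at chr17:12992210-12992509 held 0. RefSeq windows were matched for 8 of the 10 members. Among the other members, Mettl3 held the ETS motif (8.86% of promoters) and the MYB motif (8%), Zc3h13 the ETS motif, and Ythdf1 the E-box (7.15%) and 2 CCAAT boxes. The cAMP response element, the NRF1 half-site and the C/EBP-ATF element were in none of these windows and in 1.79%, 2.71% and 3.97% of all promoters. The Fto window held 23 CpG dinucleotides, that of Alkbh5 18 and the printed one of Wtap 35, where the median of all promoters was 7.

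Mettl3 and Ythdf1 lay just outside the threshold with oxamate. Mettl3 went from 164, 162 and 169 counts to 218, 195 and 239, or 0.40 on the log2 scale with an SE of 0.11 (limma adjusted p = 0.0504), within the limit set by Tox4. Ythdf1 went from 277, 243 and 305 counts to 358, 321 and 355, at 0.33 (SE 0.10, adjusted p = 0.0557). Neither gene's groups overlapped. The share of all genes without overlap with oxamate was not counted, so separation of any member is not read as particular to it. The shared library code paired the PD libraries, and with it as a block 4 members were called higher, Mettl3 (adjusted p = 0.0465) and Ythdf1 (0.0331) beside Alkbh5 and Wtap. Without untreated LZ library A, which enters only through the shared variance, the same 4 genes were called, at 0.0471 and 0.0485 for Mettl3 and Ythdf1. The authors' deposited table gave adjusted p-values of 0.105 and 0.151 for them. Ythdf2 stood at 775 ± 17.8 and 906 ± 44.1 counts without overlap (log2 fold change 0.22, adjusted p = 0.127), and Zc3h13, Ythdc1, Ythdf3 and Mettl14 at 0.27, 0.15, 0.14 and 0.04 with overlapping libraries. Mettl14 stood at 239 ± 14.7 and 246 ± 25.8 counts. The ratio of Mettl3 to Mettl14 counts was 0.665 to 0.736 untreated and 0.752 to 1.01 with oxamate. Its two-sided exact permutation p was 0.1, again the smallest without use of the shared code.

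Some marker lists moved beside these results. The 6 markers of round spermatids took 0.0597% to 0.0669% of counts without oxamate and 0.0507% to 0.0565% with it, and none of the 6 was called or had an unadjusted p under 0.05. Among them, named after their values were seen, the protamines Prm1 and Prm2, which pack sperm DNA, stood at 1131 ± 109 and 1600 ± 166 counts without oxamate and 671 ± 30.1 and 979 ± 52.4 with it (log2 fold changes -0.75 and -0.70, SE 0.99 and 0.95). The transition protein Tnp1 stood at 1502 ± 91.2 and 1066 ± 107, while Acr, Acrv1 and Spaca1 had somewhat higher means with oxamate. The test uses 1 spread over all 12 libraries. In untreated LZ cells Prm1, Prm2 and Tnp1 were low and variable, at 12.1 ± 10.8, 40.3 ± 34.7 and 2.98 ± 2.59 counts. For these 3 genes the missing call therefore says little about a fall within PD cells. The 3 endothelial markers took 0.00183% to 0.00189% and 0.000962% to 0.00123%, with none called and none at 0; Vwf, the 1 of them with an unadjusted p under 0.05, stood at 224 ± 19.2 and 121 ± 4.26 counts. Leydig, peritubular and macrophage lists also had lower shares with oxamate, without overlap. Markers of Leydig cells took 0.000284% to 0.000385% without it and 0.000175% to 0.000251% with it, those of peritubular cells 0.000170% to 0.000224% and 0.000109% to 0.000157%, and those of macrophages 0.000324% to 0.000375% and 0.000232% to 0.000298%. The 1 tested gene of each list, Star, Myh11 and C1qb, had an unadjusted p under 0.05, none was called. Of 5 tested markers of leptotene and zygotene 1 was lower, Tex101 (log2 fold change -0.40, limma adjusted p = 0.0306), and of 8 markers of pachytene and diplotene none was called or had an unadjusted p under 0.05. Their part in the changes of Alkbh5 and Wtap was not tested. Myo15, the gene before Alkbh5 on the same strand, moved the other way, falling by 1.73 on the log2 scale (SE 0.23, limma adjusted p = 0.00104) from 34.2 ± 7.78 to 9.49 ± 1.39 counts.

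**Figure D4:**
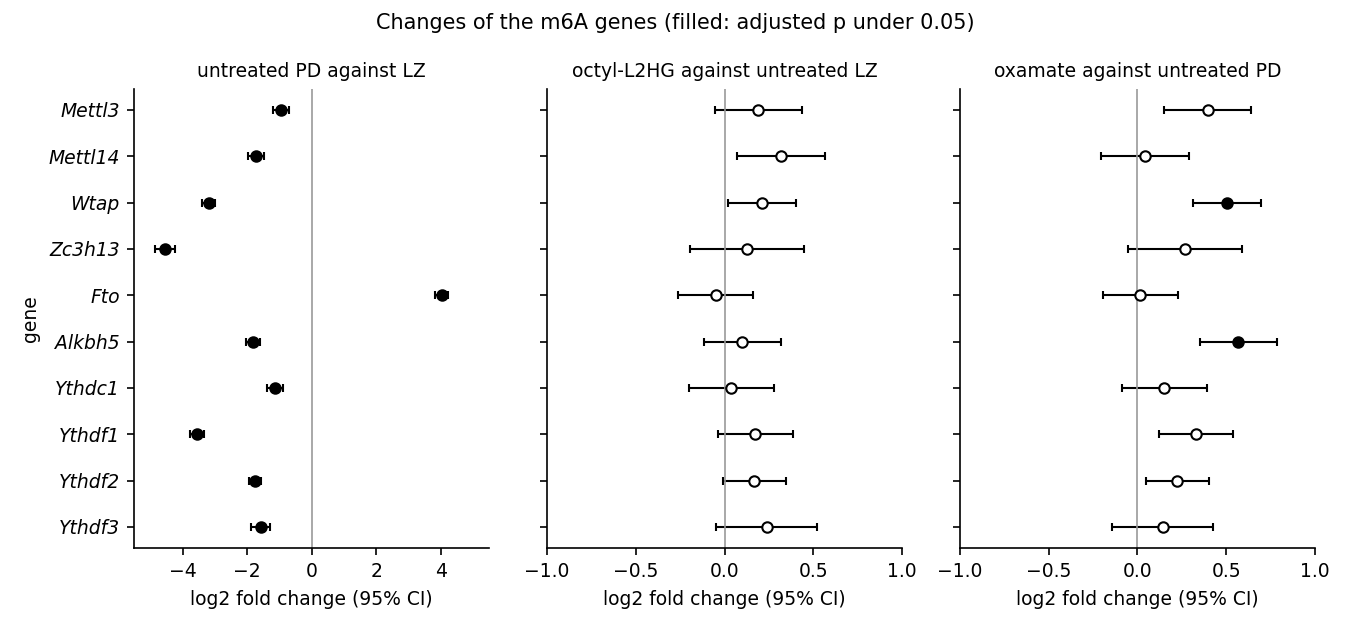
Log2 fold changes of the 10 genes with 95% confidence intervals in 3 comparisons, on a wider axis for the stage comparison, with filled points at an adjusted p under 0.05. Between stages only Fto is to the right of 0, octyl-L2HG has no filled point, and oxamate has filled points for Wtap at 0.50 and Alkbh5 at 0.57.

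Whether the treatments acted differently on a gene was tested as the oxamate change minus the octyl-L2HG change. No member was called by limma, where 0.712% of 11232 genes were called higher and 0.516% lower, and 2 members had an unadjusted p under 0.05, Alkbh5 and Wtap, as had 16.9% of those genes. For Alkbh5 the difference was 0.47 (SE 0.14, adjusted p = 0.116), and the adjusted p ranged from 0.0246 to 0.245 over 18 alternative fits, under 0.05 in 8 of them. For Wtap it was 0.29 (SE 0.13, adjusted p = 0.254), and never under 0.05 in those fits. Fto, with changes of -0.05 and 0.02, had a difference of 0.07 (95% interval -0.23 to 0.37).

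Other genes of the pathway were taken as 5 lists. Their stage counts stand beside 50.8% of all genes tested called higher and 39.0% called lower. Of 11 further methylation factors 8 were lower in PD than in LZ cells and 2 higher. The largest falls were of Zcchc4 and Mettl5, which methylate ribosomal RNA, and of Mettl16, which methylates U6 RNA, at log2 fold changes of -2.81, -2.29 and -1.74. Pcif1, which methylates the adenosine next to the cap, rose by 0.92, and Zfp217, a zinc finger protein that binds METTL3, by 0.51 (0.03, adjusted p = 0.739, with total-count scaling). Virma, the large scaffold of the complex, fell by 0.22 on the log2 scale, from 1604 ± 109 to 1376 ± 91.9 counts. Rbm15 and Rbm15b, its RNA-binding adaptors, fell by 1.11 and 1.33, and Cbll1, the complex's ubiquitin ligase, was not called at 0.20. The median was -1.11.

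Of 13 further proteins reported to bind m6A, 9 were lower and 4 higher in PD cells, with a median of -1.29. Fmr1, the fragile X protein, went from 15114 ± 2746 to 89.6 ± 12.9 counts and Rbmx, a splicing factor, from 2013 ± 427 to 17.8 ± 2.60, at -7.37 and -6.73, and both are X-linked. The autosomal Igf2bp1, a stabiliser of methylated transcripts, fell by 5.02. Its paralogues rose, Igf2bp2 by 2.74 and Igf2bp3 by 0.64, the latter not called with total-count scaling (0.16, adjusted p = 0.196), and Fxr1 rose by 0.69. Ythdc2, the YTH helicase of meiotic entry, fell by 2.92 and its partner Meioc by 1.28, to 5199 counts.

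The other members of the AlkB family of dioxygenases, to which both erasers belong, went both ways. Of 7 tested 4 were higher in PD cells and 2 lower, near the 50.8% and 39.0% of all genes. The median was 0.77, against 0.49 over all genes. Alkbh7, a mitochondrial member, rose from 7.47 to 358 counts (log2 fold change 5.40), Alkbh4 from 42.7 to 592 (3.77) and Alkbh8, which acts on transfer RNA, from 40.9 to 238 (2.51). Alkbh2, a DNA repair enzyme, fell by 2.98 and Alkbh1 by 0.41.

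A list of 8 genes was taken for the S-adenosylmethionine (SAM) cycle, which supplies the methyl group. It includes Ahcyl1 and Ahcyl2, which are Ahcy-like genes and not Ahcy itself. Of the list 7 were tested, 5 lower and 1 higher, with a median of -1.56. Mat2a, the SAM synthetase of most tissues, fell from 9134 to 1301 counts (-2.78), its regulator Mat2b by 2.04 and Ahcyl1 by 2.17. Ahcyl2 rose by 0.80. Mat1a, the liver SAM synthetase, was below the filter, with 0 counts in untreated LZ libraries and a mean of 18.8 in PD ones. Of 11 subunits of CCR4-NOT, the deadenylase that YTHDF2 recruits, 8 were lower and 2 higher, with a median of -0.74. The deadenylase Cnot6l fell by 4.57, Cnot3 by 2.22 and the deadenylase Cnot8 by 1.75, while the scaffold Cnot1 rose by 1.33 to 30619 counts and the ubiquitin ligase Cnot4 by 1.26.

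With octyl-L2HG none of the genes in these 5 lists was called, in limma or any of its alternative fits, and 7 of the 48 tested had an unadjusted p under 0.05, against 13.0% of all genes tested. With oxamate 6 were called, all higher, where 6.15% of all genes tested were called higher and 1.67% lower. Among methylation factors it was 1 of 11, Zfp217, from 4357 ± 314 to 6173 ± 228 counts (log2 fold change 0.50, SE 0.10, limma adjusted p = 0.00950). Of 11 CCR4-NOT subunits 2 rose, Cnot6 by 0.54 (adjusted p = 0.00290), from 1215 ± 60.4 to 1766 ± 106, and Cnot3 by 0.42 (adjusted p = 0.0154). Of 13 binding proteins 2 rose, Rbmx by 0.77, from 17.8 ± 2.60 to 30.9 ± 4.49, and Fmr1 by 0.84, from 89.6 ± 12.9 to 167 ± 55.8. Of 7 tested genes of the SAM list 1 rose, the Ahcy-like Ahcyl2, by 0.40 (adjusted p = 0.0367). Of 6 tested AlkB genes none was called (1 at an unadjusted p under 0.05, Alkbh1), with a median of -0.13. Zfp217 and Cnot6 were called in each of 19 alternative fits, Ahcyl2 in 18, Rbmx in 17, Cnot3 in 16 and Fmr1 in 8 (adjusted p 0.00132 to 0.133).

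**Figure D5:**
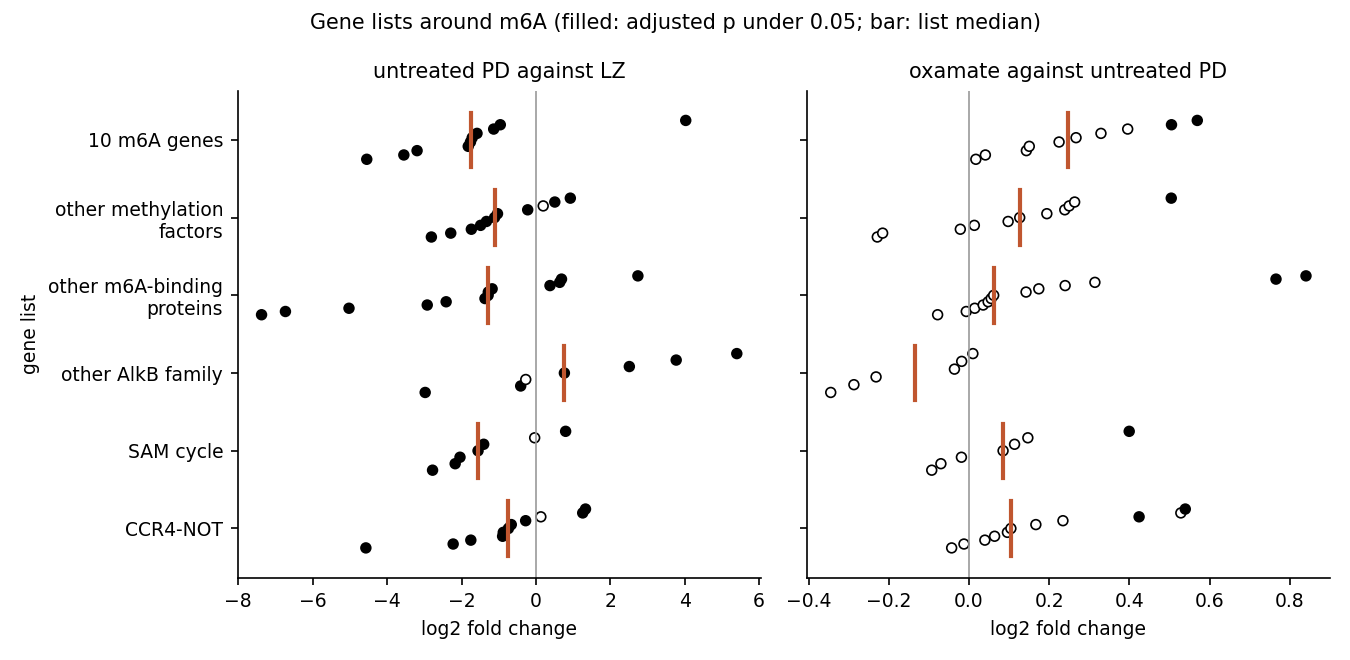
Log2 fold changes of the 10 m6A genes and of the 5 lists, with 1 point per tested gene, filled at an adjusted p under 0.05, and a coloured bar at the median of the list. Between stages the AlkB list alone has a positive median, 0.77, and with oxamate it has the lowest, -0.13, with the m6A genes highest at 0.25.

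Genes whose profile over the 12 libraries was most like that of an eraser were ranked by Pearson's r on the log2 scale over 13440 protein-coding genes, as a description, since the stages alone set most of each profile. For Fto they were Ift22, Gm973, Syngr4, Phkg2 and Amz2, with r of 0.9993 to 0.9994. Ift22, an intraflagellar transport protein, had group means of 99.0, 89.7, 1808 and 1762 counts in untreated LZ, octyl-L2HG, untreated PD and oxamate, beside 98.8, 95.4, 1624 and 1643 for Fto. For Alkbh5 they were Pip5k1c, Smad5, Atp13a1, Fam120a and Ago1, with r of 0.997 to 0.998. Ago1, an Argonaute protein, had group means of 732, 873, 126 and 223, and Smad5, a mediator of BMP signals, 2556, 2648, 309 and 633.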

How the data were processed

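Poly-A RNA of 12 libraries was sequenced (stranded kit), as the labels' protocols say. Tools named in the submitters' processing notes are TopHat2 2.1.1, HTSeq 0.6.0, cutadapt 1.18, bcl2fastq 2.18.0.12 and DESeq2 1.22.2, with build GRCm38. Not given in the sources used here are annotation release, strand setting and model. The authors deposited whole-number read counts per gene. Of 55471 genes 6255, none protein-coding, held question marks in place of counts and were left out. The authors deposited log2 fold changes and adjusted p-values too. The 12 columns of normalized values were not used. Column names give a library's group but not its labelled replicate.

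Because of the question marks the columns were entered as another unit, for which a count model is not admitted; the planned count tests were replaced by limma 3.58.1 (trend, robust, R 4.3.3) on log2(TMM-normalized count + 1), with 4 group means over 12 libraries. The filter was a mean of at least 10 over all libraries and over those compared. p-values were two-sided and Benjamini-Hochberg adjusted over all genes tested, with 0.05 as the threshold. The test was also run on simulated counts, with the same spread setting for every gene and no pairing. That run does not bear on the spread or the pairing of these data. Exon lengths came from GENCODE M21, whose positions equal the table's for 98.7% of genes. Each limma p-value sets a difference of group means against the spread between these libraries. That spread is shared over all 12, moderated across genes and, in the main fit, without pairing.

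Deviations of PD libraries sharing a code correlated at 0.358, 0.231 and 0.292, so the code was taken to pair them. PD libraries of different codes gave -0.258 to -0.004. In LZ cells the values were 0.049, 0.147 and 0.065 for the same code and -0.122 to 0.063 for different codes. Weak pairing there is not excluded. All 10 members were named; of the lists, genes called with a treatment and the 3 largest rises and falls between stages. Virma, Rbm15, Rbm15b, Cbll1, Ythdc2, Meioc and Mat1a were added for their roles after their values were seen. A further gene was left out of the lists and is not reported here. Members and lists were chosen with earlier results of these data known.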

Additional observations from a re-analysis of the deposited data

How the results depend on the processing

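Between the stages and with octyl-L2HG, the number of members called was the same, 10 and 0, in all 19 alternative fits. With oxamate it was 2, and it became 4 with the shared library code as a replicate block; leaving out 1 library at a time gave 2 to 4, and a pseudocount of 0.5 gave 3, with Mettl3 added (adjusted p = 0.0477). In the difference of the treatment changes it was 0, and it became 1 (Alkbh5) with total-count and with median-of-ratios scaling; leaving out 1 library gave 0 to 1, with 1 without any 1 of the 6 PD libraries. The block changed no other call of a member. In LZ cells the code was not taken to pair the libraries, where correlations of the same code were weakly positive. The cause was not tested.

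Counts over all genes moved more. For octyl-L2HG they were 36 higher and 3 lower, against 22 and 8 with total-count scaling, 15 higher in a fit of the LZ libraries alone, 22 and 0 with voom weights and 7 lower with a minimum mean of 1. Lower genes with oxamate numbered 254, against 383 with total-count scaling, 809 in a fit of the PD libraries alone and 468 with voom weights. For the difference there were 80 and 58, against 260 and 124 with total-count scaling, 198 and 100 with median-of-ratios scaling and 213 and 130 with the block. Leaving out 1 library gave 17 to 59 higher genes for octyl-L2HG and 10 to 354 for the difference. For oxamate it gave 729 to 1143 higher genes, against 936, and 107 to 310 lower ones. edgeR and DESeq2 were planned and not run, since the columns were not admitted as counts.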
